A study of Homo sapiens with 8 samples.

Results

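Kallikreins and the inhibitor SPINK5 were followed in keratinocytes that express variants of CARD14. The 8 genes are KLK5, KLK6, KLK7, KLK8, KLK10, KLK11, KLK13 and SPINK5, taken by symbol from a table of 28518 gene rows. All 8 were found, all 8 passed the filter on low counts, and 0 were silent, that is, under a mean of 1 CPM (counts scaled to library size). Every library came from HaCaT cells, an immortalised human keratinocyte line, deficient in CARD14. The cells received a plasmid with CARD14 joined by a self-cleaving peptide to eGFP, at 9 ug per 10 cm dish, and those positive for GFP were collected by sorting at 24 h. The plasmid carried the R820W, the N737H or the I593T variant, each described by the submitters as hypomorphic, or wild-type (WT) CARD14. Each group was sequenced as library A and library B. The submitters mention 2 independent experiments and do not tie the letters to them, so p-values measure the spread among the libraries, which may be technical. RNA was sampled from transfected, sorted cells of 1 immortal line grown in dishes, so the groups model short-term expression of a variant and not stratified epidermis. The promoter of the plasmid and the number of clones behind the deficient line were not stated.

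Kallikreins are secreted serine proteases made as inactive precursors. In the upper epidermis they are activated one by another and cut the corneodesmosomes that hold dead cells together, which lets the cells be shed. SPINK5 encodes LEKTI, a protein of many inhibitory domains that blocks KLK5, KLK7 and related proteases, and its loss in Netherton syndrome leaves these proteases unchecked. CARD14 is a scaffold in keratinocytes which, with BCL10 and MALT1, activates NF-kB. The comparisons ask how the RNA of the proteases and of their inhibitor differs between cells with a variant and cells with WT CARD14.

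The 8 libraries held 17892608 to 24629860 counts, with 17836 to 21059 genes detected. CARD14 RNA was found in all of them, at 1410 and 1190 CPM in R820W libraries B and A, 1005 and 444 CPM in N737H, 1394 and 500 CPM in I593T, and 978 and 1127 CPM in WT. The lowest values were those of the A libraries of N737H and I593T. All 8 markers of basal and cultured keratinocytes were tested and their summed level was 3936 to 6736 CPM. The 7 markers of late granular-layer cells summed to only 7.01 to 13.6 CPM, with 3 tested. Summed markers of other cell types stood at 0.458 to 2.01 CPM for fibroblasts, 1.65 to 3.15 for melanocytes and 1.05 to 2.81 for endothelium. The leukocyte list summed to 48.8 to 82.4 CPM, of which CD68 alone had a mean of 63.8 and PTPRC had 0.0653. The list of simple-epithelial or kidney-derived markers summed to 3642 to 5570 CPM. In it KRT18 had a mean of 2942 CPM, KRT8 1802, CDH2 21.7, PAX8 0.345 and PAX2 0.0492.

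The genes lie at 2 places in the genome. The 7 kallikreins belong to the cluster of 15 kallikrein genes on chromosome 19, and SPINK5 lies on chromosome 5. Promoter windows of 150 bases upstream of the outermost RefSeq start (GRCh38.p14) were available for SPINK5, KLK5, KLK6 and KLK7. A pair of them is shown, KLK5 because it was the only one of the 8 genes that edgeR called in any comparison, and SPINK5 because its libraries differed in another direction. The KLK5 window is chr19:50953039-50953188 on the minus strand and the SPINK5 window is chr5:148063830-148063979 on the plus strand, each written 5′ to 3′ up to the base before the start. Capitals mark matches to the TATA box.
KLK5: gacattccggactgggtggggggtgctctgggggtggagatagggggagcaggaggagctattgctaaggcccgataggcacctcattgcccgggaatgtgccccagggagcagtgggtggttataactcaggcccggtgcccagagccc
SPINK5: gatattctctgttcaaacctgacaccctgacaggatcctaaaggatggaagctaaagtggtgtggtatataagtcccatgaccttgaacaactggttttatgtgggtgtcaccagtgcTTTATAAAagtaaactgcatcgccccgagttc
The KLK5 window was 64.0% G and C and the SPINK5 window 44.0%, where the median of 35116 RefSeq windows of this length was 60.0%. TATAAA was searched on both strands and found in 6.71% of all windows. SPINK5 held it on both strands in overlapping matches, 32 to 27 and 30 to 25 bases before the start, and KLK5 held none. TGANTCA (AP-1) occurs in 4.17% of all windows, GGANTTTCC (NF-kB) in 0.94% and CACGTG (the E-box bound by MYC) in 4.57%, on either strand. None of these letters was found in the windows of SPINK5, KLK5, KLK6 or KLK7, and the KLK6 and KLK7 windows held no TATAAA.

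Levels differed widely between neighbours in the cluster. Per kb of the principal GENCODE transcript, KLK10, a kallikrein that is secreted by many epithelia, had the highest mean level at 120.2 CPM per kb (89.4 to 165 over the 8 libraries). KLK5, a trypsin-like protease that can start the epidermal cascade by activating itself, followed at 67.8 (46.4 to 97.4), and these ranges overlapped. KLK8, a trypsin-like protease also called neuropsin, was next at 24.6 (17.7 to 36.2), clear of the ranges on either side. KLK7, the chymotrypsin-like enzyme of corneodesmosome cleavage, was at 6.33 CPM per kb (4.21 to 8.84). The lowest levels per kb, at KLK11 (3.68), KLK6 (3.50), SPINK5 (2.95) and KLK13 (2.90), did not separate beyond their ranges. Of the 8 other kallikreins in the cluster, KLK1 had 1.62, KLK14 0.996 and KLK9 0.818 CPM per kb, while KLK15, KLK3, KLK2, KLK4 and KLK12 had 1 to 5 counts in all libraries together. With the shortest principal transcript as the length, KLK10 moved to 248 CPM per kb and KLK6 to 7.11, above KLK7 at 6.89. Opposite-strand transcripts overlap KLK5, KLK6, KLK7, KLK8 and KLK10 in GENCODE. On the same strand a further model overlaps KLK6, and a read-through model spans KLK8 and KLK9. None of these has a row of its own, and their reads cannot be told apart from those of the named genes.

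**Figure D1:**
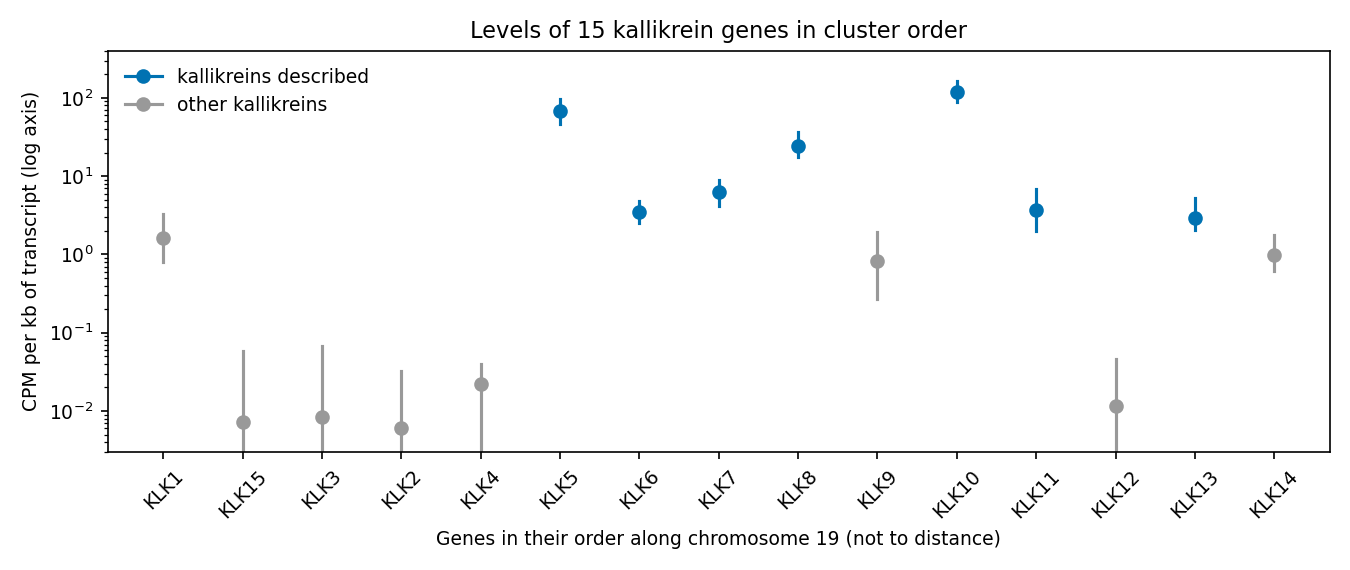
Mean level (points) and range over the 8 libraries (lines) of the 15 kallikrein genes, in CPM per kb of transcript on a log axis, in their order along chromosome 19. KLK5, KLK8 and KLK10 stand highest, and the lines of KLK15, KLK3, KLK2, KLK4 and KLK12 reach the bottom of the axis because at least 1 library had no count.

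The proteases that act on corneodesmosomes come first. KLK5 had 126 and 100.02 CPM in R820W libraries B and A, 101 and 73.3 CPM in N737H, 132 and 72.4 CPM in I593T, and 152 and 90.6 CPM in WT. KLK7 had 13.1 and 14.5 CPM in R820W libraries B and A, 10.2 and 9.21 CPM in N737H, 13.4 and 8.05 CPM in I593T, and 16.9 and 11.4 CPM in WT. For KLK5 the libraries of every variant overlapped the WT range, and for KLK7 both N737H libraries lay under both WT libraries. KLK8 had 32.2 and 28.4 CPM in R820W libraries B and A, 33.6 and 27.6 CPM in N737H, 42.1 and 24.8 CPM in I593T, and 48.0 and 23.4 CPM in WT. All 6 variant libraries of KLK8 lay between the WT libraries, which were the extremes of the set.

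KLK6, a trypsin-like protease also known as neurosin, had 6.47 and 5.28 CPM in R820W libraries B and A, 5.36 and 5.14 CPM in N737H, 6.53 and 4.31 CPM in I593T, and 8.30 and 6.50 CPM in WT. KLK10 had 403 and 427 CPM in R820W libraries B and A, 278 and 298 CPM in N737H, 385 and 302 CPM in I593T, and 513 and 384 CPM in WT. Both N737H libraries were below both WT libraries for each gene, and both R820W libraries were so for KLK6 alone. KLK11, a trypsin-like kallikrein, had 6.79 and 4.12 CPM in R820W libraries B and A, 3.20 and 3.49 CPM in N737H, 3.91 and 2.42 CPM in I593T, and 8.25 and 3.11 CPM in WT. KLK13, another trypsin-like member with 39 to 100 counts per library, had 2.99 and 3.13 CPM in R820W libraries B and A, 2.21 and 2.23 CPM in N737H, 1.93 and 2.13 CPM in I593T, and 4.83 and 2.01 CPM in WT. The WT libraries of KLK11 and KLK13 spanned most of the variant values, with library B far above library A.

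The inhibitor had 12.1 and 13.4 CPM in R820W libraries B and A, 7.43 and 13.3 CPM in N737H, 6.13 and 10.3 CPM in I593T, and 14.3 and 6.41 CPM in WT. SPINK5 was thus lower in B than in A with each variant and higher in B than in A with WT. WT library B was the highest of the 8 libraries for all 8 genes, which was so for 20.3% of the genes tested. This holds after the TMM scaling used here, where WT library B had the factor 0.926. By plain library totals SPINK5 was highest in R820W library A, at 13.5 CPM, against 13.2 CPM in WT library B. The highest library exceeded the lowest by 1.85-fold for KLK10 to 3.42-fold for KLK11.

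**Figure D2:**
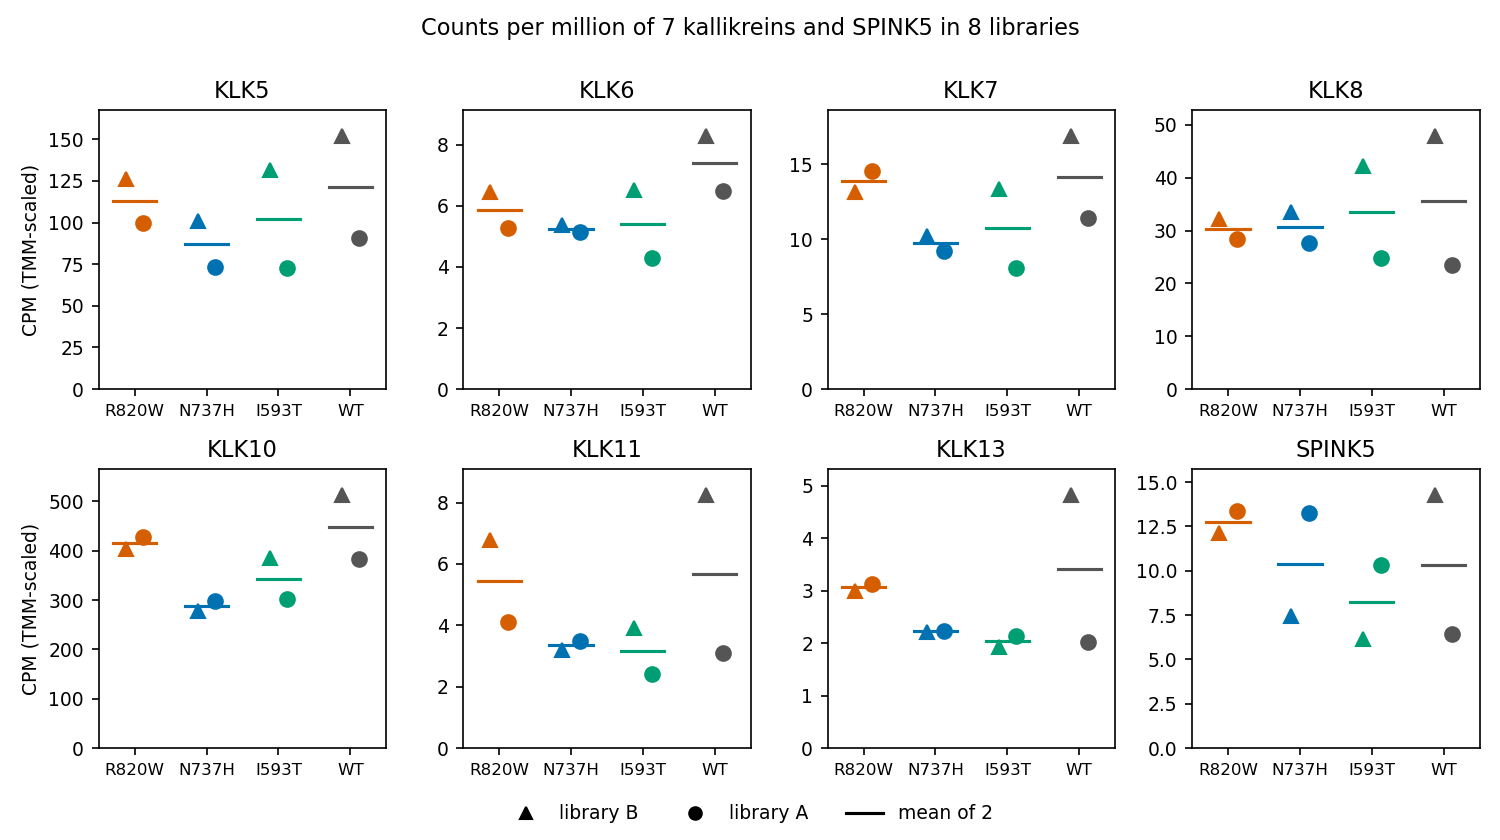
TMM-scaled CPM of each gene (y axes from 0, 1 panel per gene) in R820W, N737H, I593T and WT libraries, with triangles for library B, circles for library A and a line at the mean of both. WT library B tops every panel, and SPINK5 is lower in B than in A with each variant but not with WT.

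N737H cells had lower mean levels than WT cells for all 7 kallikreins, and none of the differences passed the adjusted threshold. KLK10 stood farthest from 0 relative to its error, with 288 ± 14.3 CPM in N737H cells and 449 ± 91.6 CPM in WT cells (SD, n = 2 each). Its log2 fold change was -0.64 ± 0.19 (SE; 95% interval -1.08 to -0.19), with an unadjusted p of 0.0107 and an adjusted p of 1.00 in edgeR's quasi-likelihood test. The value was -0.88 within B and -0.36 within A, and -0.42 without WT library B. KLK7 was at -0.54 ± 0.30, KLK6 at -0.49 ± 0.29 and KLK5 at -0.48 ± 0.34 (log2 fold change ± SE), each below 0 within both letters. Without WT library B they were at -0.24 for KLK7, -0.32 for KLK6 and -0.06 for KLK5. KLK11 at -0.76 ± 0.50, KLK13 at -0.62 ± 0.43 and KLK8 at -0.22 ± 0.36 were below 0 within B and above 0 within A, and each was above 0 without WT library B. SPINK5 averaged 10.4 ± 4.14 CPM in N737H cells and 10.3 ± 5.57 CPM in WT cells, a log2 fold change of 0.00 ± 0.44 whose interval ran from -1.02 to 1.02.

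The background of this comparison was empty, since edgeR called 0 of 14834 genes (0%) for N737H against WT and DESeq2 called 0. In edgeR's test 362 genes had an unadjusted p under 0.05, where 742 would be expected with no differences. By that unadjusted measure 1 of the 8 genes, KLK10, passed. Members had a median log2 fold change of -0.52 and all genes one of -0.03. KLK5, KLK6, KLK7 and KLK10, 4 of the 8, had the same sign within both letters, against 39.3% of all genes. Both N737H libraries lay below both WT libraries for KLK6, KLK7 and KLK10, 3 of 8, as for 12.4% of all genes tested. Basal keratinocyte markers moved in the same direction, with all 8 at lower fitted values, against 54.2% of all genes. Their sums were 3936 to 4732 CPM in N737H libraries and 5369 to 6324 CPM in WT libraries. Fitted values ran from -0.54 ± 0.19 for KRT17 to -0.10 ± 0.32 for KRT5, and 0 of the 8 were called. N737H library B had 21059 genes detected, against at most 18855 in any other library, and N737H library A had CARD14 at 444 CPM, against 1127 CPM in WT library A. The part of these shifts in the kallikrein differences was not tested. In bulk RNA, fewer cells that express a gene and less of its RNA per cell cannot be told apart.

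R820W cells came closest to WT in KLK7 (-0.03 ± 0.30), KLK11 (-0.06 ± 0.49), KLK5 (-0.10 ± 0.34) and KLK10 (-0.11 ± 0.19), as log2 fold changes ± SE. KLK10 averaged 415 ± 17.2 CPM in R820W cells and 449 ± 91.6 CPM in WT cells, and the interval of its log2 fold change ran from -0.55 to 0.33. KLK6 was at -0.34 ± 0.29, KLK8 at -0.23 ± 0.36 and KLK13 at -0.16 ± 0.43. SPINK5 was the only one of the 8 with a higher mean in R820W cells, at 12.8 ± 0.903 CPM against 10.3 ± 5.57 CPM in WT cells, a log2 fold change of 0.30 ± 0.44. KLK6 alone had the same sign within both letters, 1 of the 8, against 47.5% of all genes. Without WT library B the other 6 kallikreins were above 0, from 0.11 for KLK10 to 0.80 for KLK11, and without WT library A SPINK5 was at -0.12. For R820W against WT, edgeR called 0 genes (0%), 154 had an unadjusted p under 0.05 with 0 of the 8 among them, and DESeq2 called 0. Both R820W libraries lay below both WT libraries for 1 of the 8 genes, against 12.8% of all genes. Of the 8 basal keratinocyte markers, 5 had higher and 3 had lower fitted values in R820W than in WT, and 52% of all genes were lower.

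I593T cells had lower mean levels than WT cells for all 8 genes. KLK10 averaged 344 ± 58.8 CPM in I593T cells and 449 ± 91.6 CPM in WT cells, a log2 fold change of -0.39 ± 0.19 with an interval of -0.83 to 0.06. KLK11 was at -0.85 ± 0.50, KLK13 at -0.75 ± 0.43, KLK6 at -0.45 ± 0.29 and KLK7 at -0.40 ± 0.30. KLK5 at -0.25 ± 0.34 and KLK8 at -0.09 ± 0.36 lay nearer to 0, and SPINK5 was at -0.33 ± 0.44. KLK5, KLK6, KLK7, KLK10 and KLK11 were below 0 within both letters, 5 of 8, against 47.3% of all genes with 1 sign in both letters. Without WT library B, KLK5 (0.17), KLK8 (0.51), KLK11 (0.016), KLK13 (0.012) and SPINK5 (0.36) were above 0, KLK6 was at -0.27, KLK10 at -0.16 and KLK7 at -0.09. KLK5 (0.12) and KLK8 (0.24) were also above 0 without I593T library A. All 8 basal keratinocyte markers had lower fitted values here, as with N737H, from -0.42 ± 0.21 for TP63 to -0.01 ± 0.19 for ITGB4. Their sums were 4847 to 5504 CPM in I593T libraries and 5369 to 6324 CPM in WT libraries. CARD14 in I593T library A was at 500 CPM, against 1127 CPM in WT library A. The part of the markers and of CARD14 in the differences was not tested. The median over the 8 genes was -0.40, against -0.02 over all genes. For I593T against WT, edgeR called 0 genes (0%), 212 had an unadjusted p under 0.05 with 0 of the 8 among them, and DESeq2 called 3, none of them among the 8. In 0 of the 8 genes did both I593T libraries lie below both WT libraries, against 11% of all genes.

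**Figure D3:**
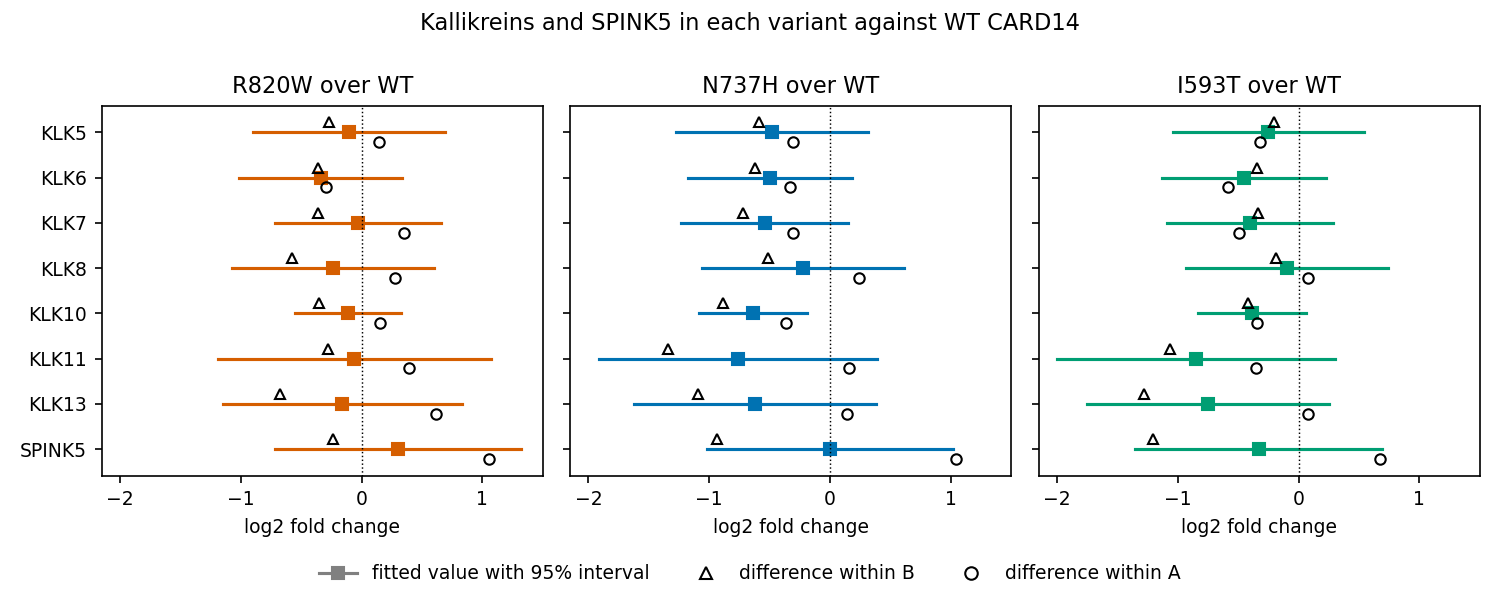
Fitted log2 fold change of each variant over WT (squares) with its 95% interval (lines), and the difference of log2 CPM within B (triangles) and within A (circles). Of the 24 intervals only that of KLK10 with N737H, -1.08 to -0.19, leaves out 0, and the SPINK5 differences lie above 0 within A and below 0 within B in every panel.

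Averaged over the 3 variants, the fitted log2 level stood below WT for all 7 kallikreins, and that of SPINK5 was at -0.01 ± 0.36 from WT. KLK10 was at -0.38 ± 0.15 (log2 fold change ± SE, interval -0.73 to -0.02), with an unadjusted p of 0.0390 and an adjusted p of 1.00 in edgeR's quasi-likelihood test. Without WT library B KLK10 was at -0.16, KLK6 at -0.25 and KLK7 at -0.02, and KLK5, KLK8, KLK11, KLK13 and SPINK5 were above 0, from 0.14 to 0.68. KLK6, at -0.43 ± 0.23, was the only one of the 8 below 0 within both letters with every variant, and the share of all genes like it was not counted. The mean of the variants had the same sign within both letters for 4 of the 8, against 42.1% of all genes. Here edgeR called 0 genes (0%), 195 had an unadjusted p under 0.05, of which 1 was among the 8, and DESeq2 called 0. In none of the 8 genes did all 6 variant libraries lie below both WT libraries, which was the case for 3.13% of all genes. The comparisons with WT share the same WT libraries, so their values are not independent of each other.

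Between variants, R820W cells had higher means than N737H cells for 7 of the 8 genes. KLK10 averaged 415 ± 17.2 CPM in R820W cells and 288 ± 14.3 CPM in N737H cells. The libraries of these groups did not overlap for KLK10, KLK7, KLK11 and KLK13, and the share of all genes without overlap was not counted. The log2 fold change of KLK10 was 0.53 ± 0.19 (interval 0.08 to 0.97), with 0.54 within B, 0.52 within A, an unadjusted p of 0.0256 and an adjusted p of 1.00 in edgeR's quasi-likelihood test. KLK7 was at 0.51 ± 0.30, KLK11 at 0.70 ± 0.50 and KLK8 at -0.01 ± 0.36. All but KLK8 were above 0 within both letters, 7 of the 8, against 52.1% of all genes with 1 sign in both letters. R820W cells were higher than I593T cells for 7 of the 8 genes, from KLK6 at 0.12 ± 0.29 to KLK11 at 0.79 ± 0.50, with SPINK5 at 0.63 ± 0.44 and KLK8 at -0.14 ± 0.36. N737H and I593T cells differed by -0.25 ± 0.19 for KLK10 to 0.33 ± 0.44 for SPINK5, with 3 of the 8 genes higher in N737H cells.

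None of these pairs had a call in edgeR, 0 genes (0%) each. The genes at an unadjusted p under 0.05 numbered 242 for R820W against N737H, 182 for R820W against I593T and 169 for N737H against I593T, of which 1, 0 and 0 were among the 8. DESeq2 called 2, 0 and 1 genes in the same order, none of the 8.

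More genes were called between the letters than between any variant and WT. KLK5 averaged 128 CPM in the 4 B libraries and 84.1 CPM in the 4 A libraries and rose in B by 0.60 ± 0.11 on the log2 scale (interval 0.34 to 0.86, adjusted p = 0.0398, edgeR's quasi-likelihood test with group and letter as terms). B was above A by 0.33 in R820W, 0.46 in N737H, 0.86 in I593T and 0.75 in WT. KLK5 was the only one of the 8 called, where 480 of 14834 genes, 3.24%, were called. Its call ended without any single library of R820W, N737H or I593T, with values of 0.51 to 0.70 and adjusted p of 0.0510 to 0.198, and held without either WT library (0.55 each, adjusted p = 0.0218 and 0.0250). The count of called genes was 0 without R820W library A, 10 without R820W library B, 31 and 32 without I593T library A or B, and 1069 and 1010 without WT library A or B.

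KLK8, at a mean of 39.0 CPM in B and 26.1 CPM in A, was also higher in B in all 4 groups, by 0.18 to 1.03. Its fitted difference was 0.57 ± 0.16, with an adjusted p of 0.0981 in edgeR and of 0.0282 in DESeq2. B exceeded A in every group for KLK5, KLK6 and KLK8, 3 of the 8 genes, and for 15.2% of all genes. KLK11 was at 0.69 ± 0.26 (adjusted p = 0.179, edgeR), KLK6 at 0.33 ± 0.16, KLK7 at 0.33 ± 0.17, KLK13 at 0.26 ± 0.30 and KLK10 at 0.15 ± 0.12. SPINK5 averaged 9.99 CPM in B and 10.9 CPM in A, a difference of -0.15 ± 0.32 with a range over the groups from -0.83 in N737H to 1.15 in WT.

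The make-up of the kallikrein RNA was compared by letter as well, by a measure that library scaling cannot move. Of the summed counts of the 7 kallikreins, KLK5 held 21.9 ± 1.35% in B libraries (20.2 to 23.3%) and 17.4 ± 0.141% in A libraries (17.2 to 17.5%; SD, n = 4 each). KLK10 held 66.6 ± 2.02% in B libraries (64.1 to 68.3%) and 72.7 ± 1.12% in A libraries (71.2 to 73.7%). The letters did not overlap for either share. Exchanging the letters within groups, an exact two-sided permutation test gave p = 0.125 for each, the smallest that 16 assignments allow, so this design cannot pass 0.05. Adjusted over the 7 shares, each of these exact permutation p-values was 0.292. KLK8 held 6.70 ± 1.00% in B libraries and 5.48 ± 0.961% in A libraries (exact permutation p = 0.125), and the shares of the other 4 had exact permutation p of 0.375 to 1.00. These shares were compared after the values had been seen, and they are shares of counts, in which longer transcripts weigh more. Being parts of the same sum, they are not independent of each other. KLK10 held the smaller share in B although its level was 395 CPM in B and 353 CPM in A.

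**Figure D4:**
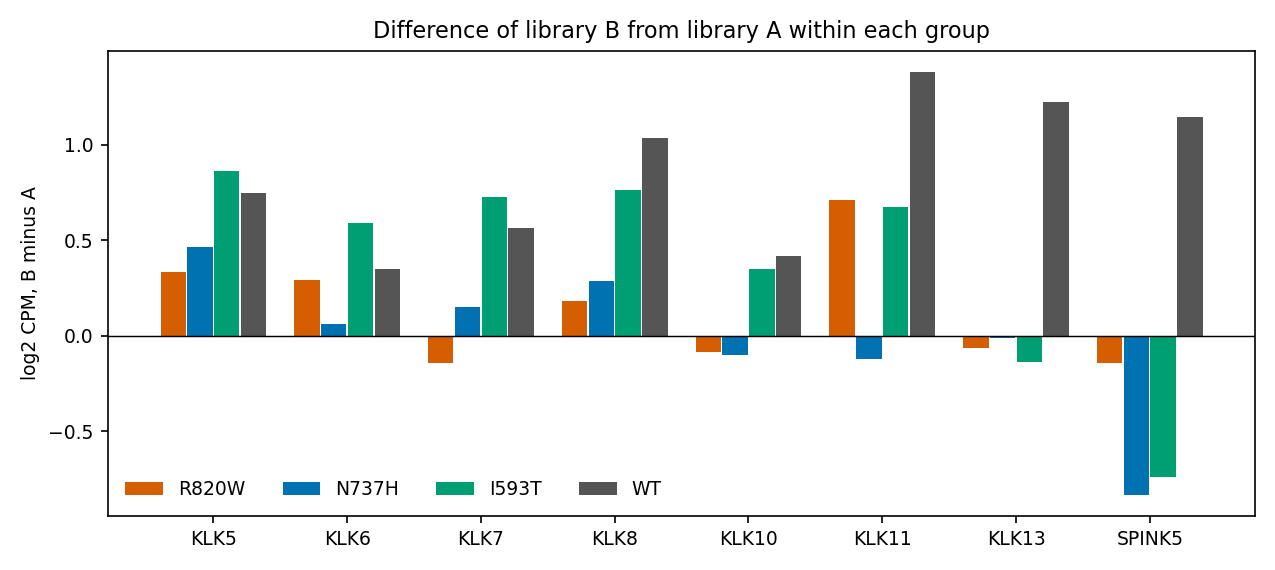
Difference of log2 CPM of library B from library A within each group (bars from 0, R820W, N737H, I593T and WT from left to right) for each gene. All 4 bars are above 0 for KLK5, KLK6 and KLK8, and for KLK13 and SPINK5 the WT bar, at 1.22 and 1.15, is the only one above 0.

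For SPINK5, KLK13 and KLK8 the position of the variants relative to WT depended on the letter. SPINK5 in B was below WT by log2 differences of -0.24 in R820W, -0.93 in N737H and -1.21 in I593T, and in A it was above WT by 1.05, 1.04 and 0.68 in the same order. The mean of the variants less WT in B, minus the same in A, came to -1.72 for SPINK5, -1.29 for KLK13 and -0.62 for KLK8, as differences of log2 CPM. All 3 variants lay above WT in A and below WT in B for these 3 genes, and for 14.4% of all genes. WT has 1 library per letter, so its spread within a letter cannot be measured, and these differences were not tested.

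Set against its inhibitor, the protease RNA ranged from 31.6 to 95.4 kallikrein counts per SPINK5 count. In B libraries the ratio was 48.8 with R820W (42.7 to 55.9), 58.4 with N737H (49.7 to 69.1), 95.4 with I593T (79.9 to 115) and 52.6 with WT (46.9 to 59.2), with exact 95% binomial intervals that cover counting error only. In A libraries it was 43.5 with R820W (39.0 to 48.7), 31.6 with N737H (28.0 to 35.7), 40.4 with I593T (35.7 to 45.9) and 81.3 with WT (68.8 to 96.7). All 3 variants were thus below WT in A, while in B only R820W was below WT, with overlapping intervals. In counts of the 2 best-known proteases alone, KLK5 ranged from 5.52 to 21.5 and KLK7 from 0.693 to 2.18 per SPINK5 count. The ratio compares counts and not molecules, because transcript lengths differ.

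**Figure D5:**
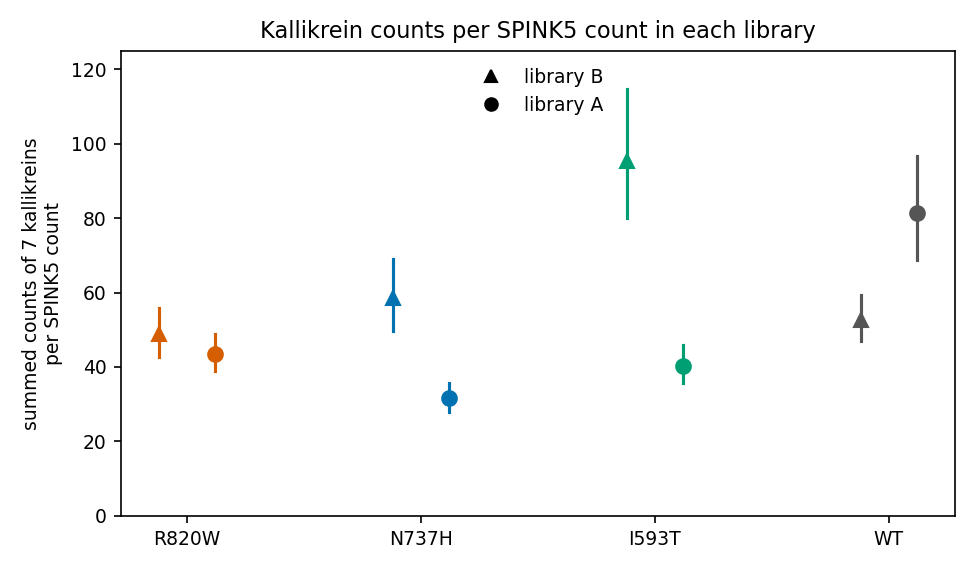
Summed counts of the 7 kallikreins per SPINK5 count in each library (triangles for B, circles for A), with exact 95% binomial intervals that cover counting error only, on an axis from 0. I593T library B (95.4) and WT library A (81.3) stand highest and N737H library A (31.6) lowest.

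Genes that act around these proteases were described from lists chosen with earlier results known. Other inhibitors were represented by 7 tested of 17 genes, led by SPINT2, an inhibitor of matriptase and related proteases, at a mean of 339 CPM and SLPI, a secreted leukocyte protease inhibitor, at 98.7 CPM. Of these 7, 4 had lower fitted values than WT in R820W, 6 in N737H and 6 in I593T. Over all genes tested, 52%, 54.2% and 54.4% were lower than in WT, in the same order. In N737H against WT, SLPI was at -0.31 ± 0.26 and SPINT2 at -0.15 ± 0.24. PI3 (elafin) fell by 1.58 ± 0.10 and SERPINA1 (alpha-1-antitrypsin) fell by 1.02 ± 0.15 on the log2 scale in B against A, with adjusted p of 0.00287 and 0.0228 in edgeR's quasi-likelihood test. Thus 2 of 7 other inhibitors were called between the letters, where 3.24% of all genes were. SERPINA1 lost its call without either R820W or either I593T library (adjusted p up to 0.155, edgeR), and PI3 did without R820W library A (adjusted p = 0.0573, edgeR).

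Activating and partner proteases had 6 tested of 11, led by PLAU (urokinase, 592 CPM) and ST14 (matriptase, 43.5 CPM). All 6 had lower fitted values in N737H than in WT (54.2% of all genes), with PLAU at -0.74 ± 0.45 and ST14 at -0.09 ± 0.21. In R820W 2 of the 6 were lower than in WT (52% of all genes), and in I593T 4 (54.4%). PLAU fell by 0.85 ± 0.09 in B against A (adjusted p = 0.00733, edgeR), 1 of 6 called, against 3.24% of all genes. Among 13 substrates 10 were tested, and the most abundant were the desmogleins DSG2 (308 CPM) and DSG3 (284 CPM). The substrates of the corneodesmosome itself were scarce, with DSG1 at 11 counts in all, DSC1 at a mean of 0.274 CPM and corneodesmosin (CDSN) at 44 counts in all. Of the 10, 5 had lower fitted values than WT in R820W, 6 in N737H and 8 in I593T. DSG3 was at 0.01 ± 0.15 in R820W, -0.46 ± 0.15 in N737H and -0.50 ± 0.15 in I593T. DSG2 was at 0.02 ± 0.14, 0.11 ± 0.14 and -0.01 ± 0.14 in the same order. IL36G, a cytokine that proteases activate, fell by 0.76 ± 0.11 in B against A (adjusted p = 0.0238, edgeR), 1 of 10 called, against 3.24% of all genes. PLAU and IL36G lost their calls without either R820W or either I593T library, with edgeR adjusted p of up to 0.0947 for PLAU and 0.156 for IL36G.

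The receptor F2RL1 (PAR2), which KLK5 can activate by cleavage, had a mean of 73.8 CPM. Its log2 fold change was -0.01 ± 0.20 in R820W, -0.09 ± 0.20 in N737H and -0.06 ± 0.20 in I593T, each over WT. F2R (PAR1) was at 7.68 CPM, and F2RL1 and F2R were the 2 tested of 3 receptors, with 0 called between the letters. In the cathepsin branch of desquamation all 9 genes were tested, with CTSC at 368 CPM and CTSD at 229 CPM. CTSC fell by 0.65 ± 0.08 in B against A (adjusted p = 0.0151, edgeR), 1 of 9 called against 3.24% of all genes, and its call ended without either R820W or either I593T library (adjusted p up to 0.146, edgeR). In this list 3 of 9 had lower fitted values than WT in R820W (52% of all genes), 8 in N737H (54.2%) and 8 in I593T (54.4%). The other kallikreins had 3 tested of 8, with 0 called in B against A. Lower than in WT were 2 of them in R820W, 3 in N737H and 3 in I593T. In N737H KLK1 was at -0.79 ± 0.63 and KLK14 at -0.79 ± 0.58. In each of these lists 0 genes were called in any comparison with WT, where 0% of all genes were.

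Over the 8 libraries, other genes tracked the members by Pearson's r of log2 CPM, searched among 9583 genes with a mean of at least 5 CPM. KLK5 was most like ACLY (r = 0.977) and VPS11 (0.973), KLK8 like NOP10 (0.980) and S100A6 (0.977), and KLK10 like AP1G2 (0.978) and GJB5 (0.972). KLK6 was most like RPRD2 (0.986) and SMURF1 (0.950), and KLK7 like SFXN3 (0.954) and MED9 (0.941). SPINK5 was most like KIF2C (0.976) and APOL6 (0.975). None of these genes belongs to the lists above. With 8 libraries and this many genes searched, each r is the highest of many and describes these libraries only.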

How the data were processed

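The authors deposited raw counts by gene symbol, as whole numbers, for 8 libraries. FastQC, MACS2, DESeq2 and the hg19 build appear in the submitters' processing notes without versions or roles. Not given in the sources used here are the aligner, counter, annotation and strand setting, so reads of overlapping genes may have been assigned in ways that could not be checked. Of 28518 rows, 5569 had no count. The filterByExpr rule (minimum count 10, 4 groups) kept 14834 genes with 99.9% of the counts.

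Counts were scaled by TMM and tested with edgeR 4.0.16 (quasi-likelihood, all 8 libraries, group means, 4 residual degrees of freedom), with two-sided p-values adjusted by Benjamini-Hochberg over all genes tested and a threshold of 0.05. The test of B against A had group and letter as terms. SE and 95% intervals come from the fitted value and its F statistic. Within a letter, log2 CPM (prior count 2) were subtracted. DESeq2 1.42.0, RLE scaling, no filter, a replicate block, the compared groups alone, removal of CARD14 and each library left out were alternatives. Lengths came from GENCODE v29 (GRCh38, not the authors' build) and promoter windows from RefSeq. No libraries agreed within sampling noise (lowest chi-square per gene 6.17). Total counts were 17892608 to 24629860, the spread between 2 libraries per group limits the precision, and intervals of ratios cover counting error only.

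The genes and lists were chosen with earlier results of these data known. All 8 genes are named in every comparison. Of each list, the 2 genes of highest mean, any called, and DSG1, DSC1, CDSN and F2RL1 are named, plus the 2 genes most correlated with each of the 8 that had a mean of at least 5 CPM. PTPRC, CD68, the other cell type markers named and the kallikreins outside this rule were named after their values were seen. The models were tested on simulated data, for the size and sign of changes planted in genes of high count. The simulated coefficient of variation was 0.19, as in the fit with the replicate block, below the 0.262 of the main fit. How many changes the main fit would miss at its own variation was not measured. A result that needs an item withheld for evaluation is not reported here.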

Additional observations from a re-analysis of the deposited data

Results flagged for a closer look

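For 3 of the 8 genes the difference between the variants and WT had opposite signs by letter, with all 3 variants below WT in B and above WT in A. The mean difference in B minus that in A (log2 CPM) was -1.72 for SPINK5, -1.29 for KLK13 and -0.62 for KLK8. This difference between the letters was not tested, since WT has 1 library per letter, and 14.4% of all genes had the same arrangement of signs. By TMM-scaled CPM, WT library B was the highest of all libraries for each of these genes. By plain library totals SPINK5 was highest in R820W library A.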

How the results depend on the processing

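Every adjusted call of the 8 genes against WT or between variants stayed at 0 with RLE scaling, no filter, DESeq2, the replicate block, only the compared groups, removal of CARD14 and each library left out. RLE scaling and removal of CARD14 changed no direction. A fit of only the groups compared was not run for the mean of the variants, where it is the same fit.

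Counts of all genes called moved from 0. With no filter they were 2 for R820W, 2 for N737H, 8 for I593T and 2 for the mean of variants against WT, 8 for R820W against N737H, 10 for R820W against I593T and 11 for N737H against I593T. DESeq2 called 3 for I593T against WT, 2 for R820W against N737H and 1 for N737H against I593T. For B against A, where edgeR called 480, no filter gave 760 and DESeq2 1287, with 2 of the 8 genes called in place of 1.

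With the replicate block, edgeR called 1 gene for R820W against N737H and 0 elsewhere, and DESeq2 called 1 for R820W, 20 for N737H, 3 for I593T and 3 for the mean of variants against WT, 28 for R820W against N737H, 5 for R820W against I593T and 1 for N737H against I593T. Under the replicate block the R820W values against WT changed sign for KLK7 (0.0086 in edgeR, 0.0021 in DESeq2) and KLK11 (0.0077 and 0.0024), and SPINK5 with N737H was at -0.042 in edgeR and -0.045 in DESeq2. The letters were not taken as pairs in the main fit because the submitters do not tie them to the experiments. Deviations of same-letter libraries correlated at 0.0242 for WT with N737H and at 0.312 to 0.41 for the other pairs. The coefficient of variation was 0.19 with the block and 0.262 without it, so the main fit holds differences between the letters in its error. With no filter SPINK5 in N737H against WT was at -0.018 and KLK8 in R820W against N737H at 0.00047.

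Leaving out 1 library leaves a lone library that is assumed to vary like the others. For R820W against WT the log2 values then ran from -0.39 to 0.31 for KLK5, -0.25 to 0.28 for KLK7, -0.62 to 0.37 for KLK8, -0.27 to 0.11 for KLK10, -0.56 to 0.80 for KLK11, -0.62 to 0.60 for KLK13 and -0.12 to 0.99 for SPINK5. For N737H against WT they ran from -0.60 to 0.38 for KLK8, -1.25 to 0.10 for KLK11, -1.06 to 0.13 for KLK13 and -0.50 to 0.69 for SPINK5, and stayed below 0 for KLK5 (-0.75 to -0.06), KLK6 (-0.61 to -0.32), KLK7 (-0.74 to -0.24) and KLK10 (-0.78 to -0.42). For I593T against WT, with 0 to 3 genes called, they ran from -0.75 to 0.17 for KLK5, -0.53 to 0.51 for KLK8, -1.34 to 0.016 for KLK11, -1.20 to 0.012 for KLK13 and -0.75 to 0.36 for SPINK5. For the mean of variants, with 0 to 1 genes called, they ran from -0.56 to 0.14 for KLK5, -0.56 to 0.42 for KLK8, -1.05 to 0.30 for KLK11, -0.96 to 0.25 for KLK13 and -0.43 to 0.68 for SPINK5.

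Between variants, R820W against N737H gave -0.13 to 0.094 for KLK8 and -0.10 to 0.79 for SPINK5. R820W against I593T, with 0 to 3 genes called, gave -0.23 to 0.64 for KLK5, -0.16 to 0.44 for KLK6 and -0.48 to 0.29 for KLK8. N737H against I593T, with 0 to 3 genes called, gave -0.60 to 0.26 for KLK5, -0.32 to 0.28 for KLK6, -0.46 to 0.26 for KLK7, -0.47 to 0.30 for KLK8, -0.23 to 0.46 for KLK11 and -0.17 to 0.75 for SPINK5. B against A called 0 to 1069 genes, with 0 without R820W library A, 10 without R820W library B, 31 and 32 without an I593T library, and 1069 and 1010 without WT library A or B. It called 0 to 1 of the 8 genes, with KLK13 from -0.080 to 0.39 and SPINK5 from -0.58 to 0.087. The causes of these changes were not tested.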
